A study of Mus musculus with 12 samples.

Results

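The genes described here encode the machinery that makes microRNAs and lets them silence messages: Drosha, Dgcr8, Xpo5, Dicer1, Tarbp2, Ago1, Ago2, Ago3, Ago4 and Tnrc6a. They were chosen by name, and each of the 10 symbols was found once among the 55487 genes of the count table. Levels came from RNA-Seq of whole lungs of 12 miR-30a-/- mice on the C57BL/6J background, 3 in each of 4 groups. Hyperoxia females and hyperoxia males breathed 95% oxygen on postnatal days (PND) 1 to 5, with recovery in room air afterwards, and room air females and room air males were kept in room air. All lungs were taken at PND 21. Every group, controls included, carried the same global CRISPR/Cas9 deletion of miR-30a, so the comparisons are of exposure and sex among knockout lungs, and wild-type lungs were not analysed here. Pups of several litters had been pooled and redistributed between exposures, and the lungs had been perfused with PBS through the right ventricle before freezing. Sex, exposure and genotype were taken from the sample labels.

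Most microRNAs are made in steps. The Microprocessor, formed by the nuclease Drosha and its RNA-binding partner Dgcr8, cuts the hairpin out of the primary transcript in the nucleus, exportin 5 (Xpo5) carries the hairpin to the cytoplasm, and Dicer1, with the partner Tarbp2, cuts it to a short duplex. An Argonaute protein (Ago1 to Ago4) keeps one strand and pairs its seed, the bases near the 5′ end, with messages, and the GW182 protein Tnrc6a bridges the Argonaute to the enzymes that shorten the poly(A) tail and remove the cap. Ago2 alone among the mouse Argonautes is known as a potent slicer of paired RNA. These genes are active in most tissues, and Dicer1 is known to be needed for branching of the embryonic lung.

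The microRNA deleted in these mice is shown with family members that share its seed, since letters matching this seed were found in messages of the machinery. Sequences are mature microRNAs from RefSeq on GRCm38.p6, written 5′ to 3′ with the seed (bases 2 to 8) in capitals.
miR-30a-5p, chr1:23272274-23272295, plus strand: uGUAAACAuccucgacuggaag
miR-30c-5p, from Mir30c-2 at chr1:23291714-23291736, plus strand: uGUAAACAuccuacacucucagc
miR-30e-5p, chr4:120772660-120772681, minus strand: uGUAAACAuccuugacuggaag
These microRNAs have the seed GUAAACA in common. In a message, the matching letters are TGTTTAC, and the longer form TGTTTACA contains it and adds an A opposite the first base. Both were searched on the sense strand only, in the longest 3′UTR of each gene, taken from GENCODE M21.

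The Argonautes and Tnrc6a held this match and the 5 genes of the earlier steps did not. Ago1 and Ago4 held 1 match each, Ago2 and Ago3 held 3 each and Tnrc6a held 4, whereas Drosha, Dgcr8, Xpo5, Dicer1 and Tarbp2 held 0 in the UTR searched. Of 21037 protein-coding genes with a 3′UTR, 13.8% held TGTTTAC and 6.78% held TGTTTACA. The share was higher among genes with longer UTRs, from 4.53% of genes with UTRs under 1000 bases to 17.8% of those from 1000 to 3000 bases and 38.6% of those longer still. The UTRs of the 10 genes ran from 169 bases in Drosha to 12742 bases in Ago3, with a median of 3013.5 against 960 over all genes, so the count of 5 of 10 is to be read beside those length classes. Genes with a match had UTRs from 2345 bases in Tnrc6a to 12742 in Ago3. Those without ran from 169 in Drosha to 3851 in Dicer1, so the split by step is to be read beside length too. The TGTTTACA matches, present in 4 of the 10 genes, are printed below with the match in capitals and flanking bases in lower case, on GRCm38 and in the direction of the message. Ago2 held only the shorter form, and the first of its matches is added.
Ago1, chr4:126437920-126437942, minus strand: tttgcttcTGTTTACAcaaatga
Ago3, chr4:126343359-126343381, minus strand: ctgtttacTGTTTACAaaggatt
Ago4, chr4:126491411-126491433, minus strand: tacattcaTGTTTACAtttctgt
Tnrc6a, chr7:123193665-123193687, plus strand: aaccttctTGTTTACAgattttt
Tnrc6a, chr7:123194464-123194486, plus strand: cttttaacTGTTTACAataggat
Ago2, chr15:73106281-73106303, minus strand: gtcacgtgTGTTTACggcagtga
A match in letters is a description of the message and was not tested for pairing. In Ago3 another TGTTTAC stands directly before the printed one and is part of its flank.

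The libraries held 8763033 to 16741694 counts on genes, and 3 counts, below which a gene was read as not detected, amounted to 0.191 to 0.327 CPM, the count of a gene scaled to a common library size. Mir30a (chr1:23272269-23272339) and Mir30c-2 (chr1:23291701-23291784) had 0 counts in all 12 lungs. Of 2207 microRNA genes listed, 528 had 0 counts in every lung and 48 had at least 10 counts in every lung, and together they took 0.087% to 0.116% of the counts, so these libraries do not measure mature microRNAs and the count of Mir30a does not check the deletion. Genes of olfactory and vomeronasal receptors, known mainly from sensory neurons of the nose although single members are expressed in other tissues, lung included, took 0.435% to 1.00% of the counts, and the share differed between libraries. The 10 surfactant, alveolar and airway markers of lung epithelium, Sftpc and Ager among them, were detected, and none of them was at 0 in all lungs. In whole lung, fewer cells of a type and less RNA per cell cannot be told apart.

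All 10 genes passed the filter on low counts and were counted in every lung, from 195 counts of Tarbp2 in hyperoxia male 2 to 3484 counts of Ago2 in room air female 5. To compare genes with one another, levels were divided by exon length and given as RPKM, CPM per kilobase of exon. Over the 12 lungs, Ago1 stood highest at 15.7 ± 3.39 RPKM (SD), above 93.4% of 20950 protein-coding genes tested, followed by Ago2 at 11.5 ± 2.25, Drosha at 11.4 ± 1.37 and Tnrc6a at 9.55 ± 1.89. Xpo5 at 8.63 ± 0.846 and Dicer1 at 7.51 ± 1.28 came next. Ago3 at 5.49 ± 1.12, Tarbp2 at 5.08 ± 0.518, Ago4 at 5.03 ± 0.601 and Dgcr8 at 4.68 ± 0.434 closed the order, and Dgcr8 was above 54.4% of protein-coding genes.

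Within each lung, 5 of the 9 neighbouring pairs in this order differed (exact sign-flip permutation test, two-sided, adjusted over 9 pairs). The order was set in the same 12 lungs, so these p-values are not an independent test of it. Ago1 exceeded Ago2 in 12 of 12 lungs, by 0.45 ± 0.12 on the log2 scale (SD; adjusted exact p = 0.0011). Drosha exceeded Tnrc6a in 12 of 12 lungs by 0.27, Xpo5 exceeded Dicer1 in 12 of 12 by 0.21 and Dicer1 exceeded Ago3 in 12 of 12 by 0.46, each with the same adjusted exact p. Ago4 exceeded Dgcr8 in 10 of 12 lungs by 0.10 (adjusted exact p = 0.038). Ago2 and Drosha differed by -0.0045 in mean log2 (adjusted exact p = 0.93), and Tnrc6a with Xpo5, Ago3 with Tarbp2 and Tarbp2 with Ago4 also did not differ beyond their spread (adjusted exact p = 0.063, 0.265 and 0.835). Without the division by length, Ago2 at 160.7 CPM and not Ago1 at 127 CPM held the most counts, and 6 of 9 neighbours differed.

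**Figure D1:**
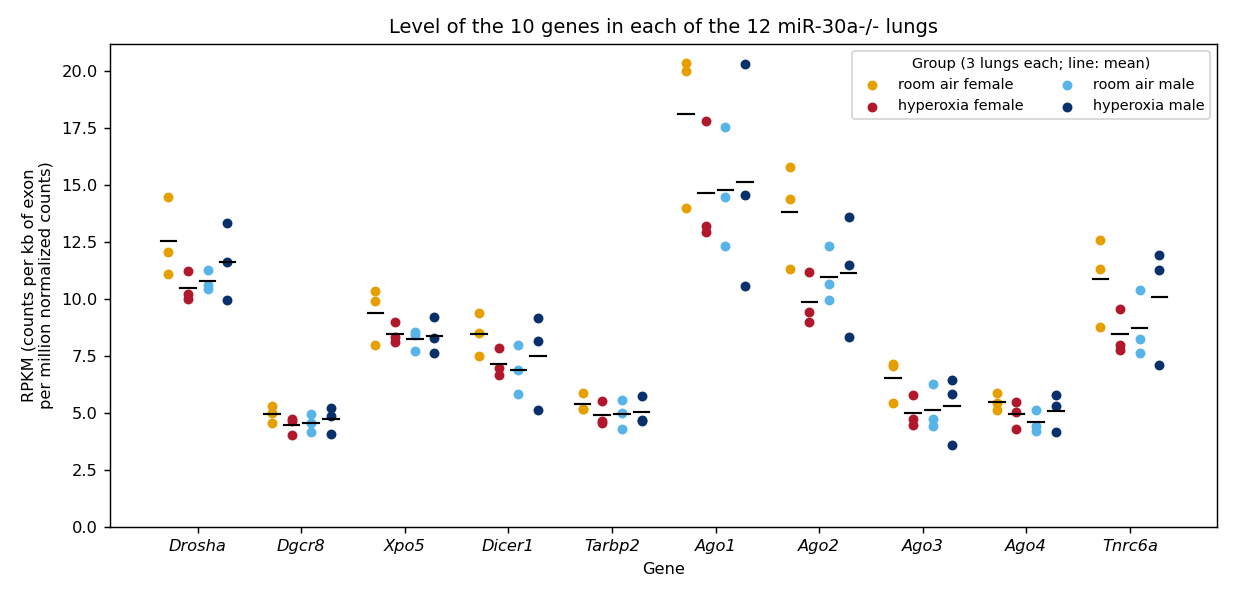
Level of each gene in RPKM (vertical axis, starting at 0) in each of the 12 lungs; colours mark the 4 groups of 3 lungs and black lines their means. Ago1 is the highest gene in every lung, the room air female mean is the highest of the 4 group means for each gene, and the groups overlap between exposures for all genes except Ago2 in females.

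The genes differed in how much they varied between lungs. Ago1, Ago3 and Ago2 had coefficients of variation of 21.6%, 20.4% and 19.6% over the 12 lungs, Tnrc6a 19.8% and Dicer1 17.03%. Drosha stood at 12.1%, Ago4 at 11.96%, Tarbp2 at 10.2%, Xpo5 at 9.81% and Dgcr8 at 9.28%. Among 7421 protein-coding genes with a mean CPM between the lowest and the highest of the 10 genes, the median was 15.9% and the middle of the distribution ran from 11.2% to 20.2%. The lung with the highest CPM was room air female 5 or room air female 2 for all 10 genes, and the lung with the lowest was hyperoxia male 2 for 8 of them, with Dgcr8 lowest in hyperoxia female 5 and Tarbp2 lowest in room air male 1.

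Hyperoxia against room air was then compared with sexes averaged, in females and in males, and the effect was compared between the sexes by an interaction. The test was edgeR's quasi-likelihood test on counts, and a call needed a fold change over 1.5 together with a p under 0.05 after Benjamini-Hochberg adjustment over the 45828 genes tested. None of the 10 genes was called in any of these comparisons. With sexes averaged, 19 of the 45828 genes were called (0.0415%), in females 1 (0.00218%), and in males and for the interaction 0 (0%). At an unadjusted p under 0.05, 1 of the 10 genes passed in females, where 12.6% of all genes passed and 5.28% passed as lower. None passed with sexes averaged, in males or for the interaction, where 5.2%, 2.7% and 8.46% of all genes did. DESeq2's Wald test and edgeR's likelihood ratio test also called 0 of the 10 in each comparison.

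For the Microprocessor, no difference between exposures passed the test. Drosha (ENSMUSG00000022191, chr15:12824815-12935291, plus strand) had 71.6, 85.9 and 65.8 CPM in room air females 2, 5 and 6 and 60.6, 59.5 and 66.6 CPM in hyperoxia females 2, 4 and 5. It had 62.1, 67.0 and 63.1 CPM in room air males 1, 4 and 5 and 79.2, 59.1 and 68.97 CPM in hyperoxia males 1, 2 and 3. The groups overlapped in both sexes, with room air female 5 the highest lung and hyperoxia male 2 the lowest. The log2 fold change of Drosha was -0.26 in females (95% interval -0.63 to 0.11, edgeR adjusted p = 0.49) and 0.11 in males (-0.26 to 0.48, adjusted p = 1.00). Dgcr8 (ENSMUSG00000022718, chr16:18253948-18289246, minus strand), which gives the Microprocessor its grip on the hairpin, averaged 38.2 ± 2.97 CPM in room air females and 34.5 ± 2.99 CPM in hyperoxia females (SD, n = 3), and 35.0 ± 3.15 and 36.4 ± 4.63 CPM in males. Its log2 fold change was -0.15 in females (edgeR adjusted p = 0.64) and 0.058 in males. Dgcr8 shares 825 exon bases with Trmt2a on the opposite strand, and since the strand setting of the counting is not given in the sources used here, reads of these genes cannot be told apart. The Dgcr8 message is itself known as a substrate of the Microprocessor, which cuts hairpins out of it, and the microRNAs listed inside the gene are shown for that reason, 5′ to 3′ with the seed in capitals (RefSeq, GRCm38.p6).
miR-1306-3p, chr16:18284248-18284268, minus strand: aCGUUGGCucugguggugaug
miR-3618-5p, chr16:18284602-18284623, minus strand: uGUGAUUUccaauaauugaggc
Both hairpin genes had 0 counts in all 12 lungs, which in total RNA counted by gene says nothing of the mature microRNAs.

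Export and dicing gave no call either. Xpo5 (ENSMUSG00000067150, chr17:46202782-46243598, plus strand) averaged 64.5 ± 8.67 CPM in room air females and 58.2 ± 3.17 CPM in hyperoxia females, and 56.5 ± 3.16 and 57.5 ± 5.50 CPM in room air and hyperoxia males (SD, n = 3). Tarbp2 (ENSMUSG00000023051, chr15:102518192-102523676, plus strand), the least counted of the 10 genes, averaged 24.6 ± 1.85 and 22.4 ± 2.46 CPM in females and 22.6 ± 2.86 and 22.9 ± 2.85 CPM in males. In females, the log2 fold changes were -0.15 for Xpo5 and -0.14 for Tarbp2, the smallest female difference of the 10 genes (edgeR adjusted p = 0.67 and 0.64), and in males both were 0.026.

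Dicer1 (ENSMUSG00000041415, chr12:104687742-104751952, minus strand), the enzyme that frees the microRNA duplex, had 143, 158 and 126 CPM in room air females 2, 5 and 6 and 131, 112 and 117 CPM in hyperoxia females 2, 4 and 5. In males it had 97.6, 134 and 115 CPM in room air lungs 1, 4 and 5 and 154, 86.1 and 137 CPM in hyperoxia lungs 1, 2 and 3. The hyperoxia males thus held both the lowest lung of all and a lung close to the highest, and their range contained that of the room air males. The log2 fold change of Dicer1 was -0.24 in females (95% interval -0.71 to 0.22, edgeR adjusted p = 0.60), 0.12 in males (-0.34 to 0.58, adjusted p = 1.00) and -0.061 with sexes averaged (-0.39 to 0.27, adjusted p = 0.97).

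The largest female differences were those of Ago2, Ago3, Tnrc6a and Ago1, all of the silencing step. Ago2 (ENSMUSG00000036698, chr15:73095844-73184935, minus strand), the slicing Argonaute, had 202, 222 and 159 CPM in room air females 2, 5 and 6 and 157, 133 and 126 CPM in hyperoxia females 2, 4 and 5. All 3 hyperoxia females stood below all 3 room air females, and the nearest lungs were 159 and 157 CPM. Among all genes tested, 6.42% were lower in hyperoxia females without overlap and 10.8% were higher. The log2 fold change of Ago2 in females was -0.49, or 0.713-fold (95% interval -0.96 to -0.013, edgeR adjusted p = 0.39). Its unadjusted p in edgeR, 0.0446, was the lowest of the 10. In males Ago2 had 139.9, 173 and 149 CPM in room air lungs 1, 4 and 5 and 191, 117 and 161 CPM in hyperoxia lungs 1, 2 and 3, which overlapped as all 10 genes did in males (2.73% of all genes were higher and 3.89% lower without overlap), with a log2 fold change of 0.022 (-0.45 to 0.50, adjusted p = 1.00). Ago2 shares 219 exon bases with Chrac1 on the opposite strand, which had 75 to 203 counts against 1073 to 3484 of Ago2.

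Ago1, Ago3 and Ago4 lie beside one another on chromosome 4, on the minus strand, between 126331704 and 126533472. Ago1 (ENSMUSG00000041530) had 165, 162 and 114 CPM in room air females 2, 5 and 6 and 145, 105 and 107 CPM in hyperoxia females 2, 4 and 5, with room air female 6 inside the hyperoxia range. Its log2 fold change was -0.30 in females (95% interval -0.80 to 0.19, edgeR adjusted p = 0.54) and 0.037 in males. Ago3 (ENSMUSG00000028842) had 119, 117 and 89.98 CPM in the same room air females and 95.7, 78.3 and 73.99 CPM in the hyperoxia females, a log2 fold change of -0.39 (-0.85 to 0.059, adjusted p = 0.43), against 0.044 in males. Ago4 (ENSMUSG00000042500) averaged 38.0 ± 2.51 CPM in room air females, 34.4 ± 4.15 in hyperoxia females, 31.9 ± 3.30 in room air males and 35.4 ± 5.76 in hyperoxia males (SD, n = 3). With sexes averaged, Ago4 had the log2 fold change closest to 0 among the 10 genes, 0.0036 (95% interval -0.23 to 0.23, edgeR adjusted p = 1.00).

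Tnrc6a (ENSMUSG00000052707, chr7:123123885-123195296, plus strand), a silencing partner of the Argonautes, had 144, 159.9 and 111 CPM in room air females 2, 5 and 6 and 122, 98.6 and 102 CPM in hyperoxia females 2, 4 and 5. In males it had 96.8, 132 and 104.5 CPM in room air lungs 1, 4 and 5 and 152, 90.2 and 143 CPM in hyperoxia lungs 1, 2 and 3. It overlapped between exposures in both sexes. Its log2 fold changes, -0.37 in females and 0.21 in males, gave the largest difference between the sexes of the 10 genes, -0.57 on the log2 scale (95% interval -1.24 to 0.088, edgeR adjusted p = 0.58). The GW182 paralogs Tnrc6b and Tnrc6c had log2 fold changes of -0.33 and -0.24 in females and 0.085 and 0.069 in males (edgeR adjusted p = 0.52 and 0.58 in females, 1.00 in males).

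Counted together, 10 of the 10 genes were lower in hyperoxia females, with a median log2 fold change of -0.25, and 10 of 10 were higher in hyperoxia males, with a median of 0.051. With sexes averaged, 9 of 10 were lower, with a median of -0.068, where 79.4% of 7421 protein-coding genes in the same CPM range were lower (median -0.0933). The medians over all genes tested were 0.11 in females, -0.011 in males and 0.031 with sexes averaged, and 60.8%, 48% and 56% of all genes were higher. Among those 7421 genes, the median was -0.26 in females, with 87.0% lower, and 0.049 in males, with 66.6% higher, so the direction of the 10 genes was that of most protein-coding genes at their level. The silencing genes (Ago1 to Ago4 and Tnrc6a) had a female median of -0.37 and the genes of the earlier steps one of -0.15, a difference that was not tested. The male directions depended on single lungs. Without hyperoxia male 1, the log2 fold change turned negative for Ago1 (-0.23), Ago2 (-0.14), Ago3 (-0.11), Tarbp2 (-0.080), Xpo5 (-0.045), Dicer1 (-0.045) and Dgcr8 (-0.016). Without room air male 1 it turned negative for Ago1, Ago2, Ago3, Tarbp2, Xpo5 and Dgcr8, and for Ago3 also without room air male 5 or hyperoxia male 3. Without hyperoxia male 2 all 10 stayed higher and Tnrc6a reached 0.42. In females all 10 stayed lower whichever lung was left out.

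The intervals set what these lungs could show. In males, 9 of the 10 intervals lay within a fold change of 1.5 either way, in females 4 of 10 did, and with sexes averaged all 10 did. Every interval in females and in males lay within a fold change of 2. For the interaction, all 10 intervals reached past a fold change of 1.5, from -1.24 at the lowest to 0.36 at the highest, so differences between the sexes of that size lay within the error. Between females and males with exposures averaged, where 1.22% of all genes were called, none of the 10 was called, 0 passed an unadjusted p under 0.05 (6.88% of all genes did), and all 10 were slightly higher in females, by 0.022 to 0.13 on the log2 scale, where 74.8% of the 7421 genes in the same CPM range and 43.3% of all genes were higher (edgeR adjusted p from 0.97 to 0.99, with other values under RUVr given further on).

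**Figure D2:**
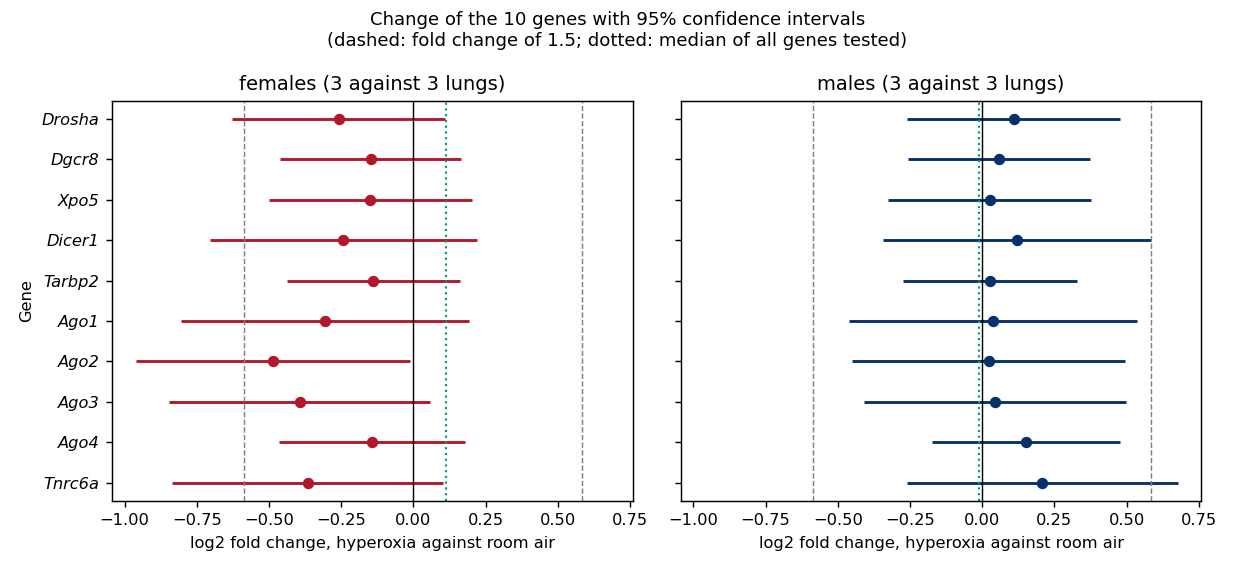
log2 fold change of each gene, hyperoxia against room air, in females (left) and males (right), as points with 95% confidence intervals from the fit over 12 lungs. All 10 points lie left of 0 in females and right of 0 in males, and of the 20 intervals only that of Ago2 in females, ending at -0.013, does not contain 0.

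Because shares within a lung do not depend on how libraries are scaled, the make-up of the Argonaute pool was compared next. The shares still include background reads, estimated from the receptor genes and uneven between groups. These reads amounted to a median of 8.79% of Ago1 counts, 11.2% of Ago2, 22.7% of Ago3 and 24.5% of Ago4. Ago1 held 41.5% ± 1.82 of the summed RPKM of the 4 Argonautes (SD, n = 12), Ago2 30.4% ± 1.46, Ago3 14.6% ± 0.648 and Ago4 13.6% ± 1.42. Ago1 and Ago2 held the first and second place in each group's mean. This order depends on the division by length, without which Ago2 exceeded Ago1 in 12 of 12 lungs. The Ago2 share was 31.2% ± 1.10 in room air lungs and 29.6% ± 1.37 in hyperoxia lungs (n = 6 each), a difference of -1.63 percentage points (exact permutation test within sex, two-sided, p = 0.045, adjusted over 8 shares and ratios p = 0.36). In females it was 30.1% to 32.7% in room air and 27.74% to 30.04% in hyperoxia lungs, and in males 29.9% to 32.0% and 29.5% to 31.2%. The Ago4 share went the other way, 12.8% ± 1.23 against 14.3% ± 1.27, by 1.47 points (exact p = 0.105, adjusted p = 0.42). The shares of Ago1 and Ago3 differed by 0.40 and -0.24 points (exact adjusted p = 0.97 for both).

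**Figure D3:**
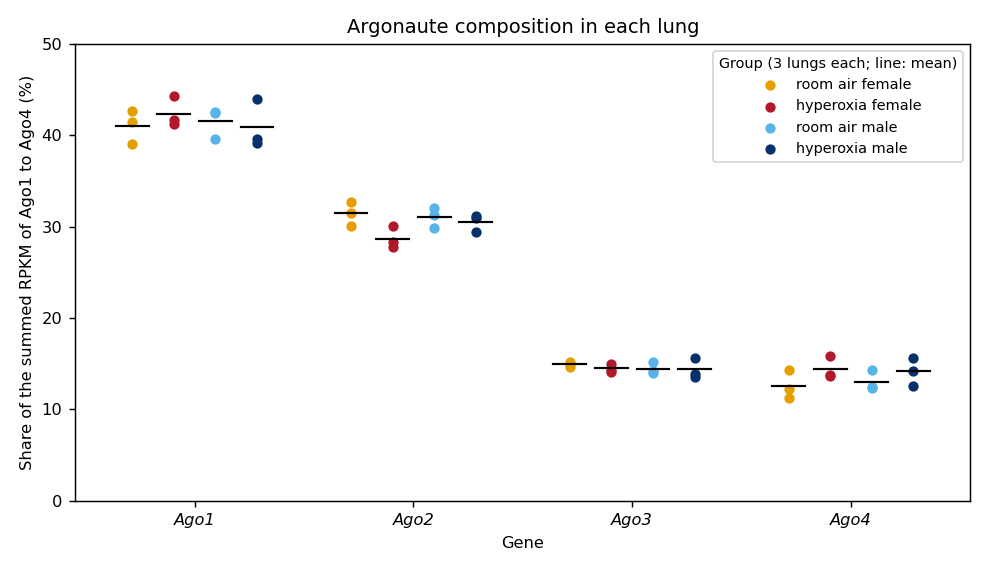
Share of each Argonaute in the summed RPKM of Ago1 to Ago4 (vertical axis in percent, from 0) in each of the 12 lungs, with group means as lines. Ago1 holds the largest share in every lung, and the hyperoxia females have the lowest group mean for Ago2, at 27.74% to 30.04%, which overlaps both male groups.

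Ratios between partner genes gave no difference past the threshold. Drosha exceeded Dgcr8 by 1.28 ± 0.133 on the log2 scale of RPKM (SD, n = 12) and Dicer1 exceeded Tarbp2 by 0.55 ± 0.199. The ratios differed between exposures by -0.028 and -0.017 (exact permutation test, adjusted p = 0.97 and 0.995). Drosha, which opens the pathway, exceeded Dicer1, which follows it, by 0.61 ± 0.158, and the difference between exposures was -0.00056 (exact adjusted p = 0.995). Tnrc6a held 34.2% ± 1.26 of the summed RPKM of the 3 Tnrc6 genes, 34.0% ± 1.16 in room air and 34.4% ± 1.43 in hyperoxia lungs (exact adjusted p = 0.97). The smallest p that this test allows is 0.005.

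The genes around the machinery were taken from lists of cofactors and effectors, of germline Piwi genes and of microRNA host transcripts. Of 87 such genes tested, 0 were called by edgeR's quasi-likelihood test in any comparison (lowest adjusted p 0.17 between the sexes and 0.18 in females). In females 70 of the 87 were lower, with a median log2 fold change of -0.29, and at an unadjusted p under 0.05 17 were lower and 3 higher, where 5.28% of all genes tested were lower and 7.32% higher. With sexes averaged 7 were lower and 2 higher at that threshold, where 2.52% and 2.67% of all genes were. In males 60 were higher, with a median of 0.073. Directions in these lists are to be read beside all genes tested, of which 60.8% were higher in females, and beside the 7421 protein-coding genes in the CPM range of the 10 genes, of which 87% were lower in females (median -0.257) and 66.6% higher in males (median 0.0492). Some listed genes lie outside that range. Nothing particular to a list is read from the counts that follow. Of the 12 Microprocessor cofactors, among them the helicases Ddx5 and Ddx17, 12 were lower in females with a median of -0.36. The export and dicing partners were lower in 7 of 10 cases (median -0.27) and the genes of RISC loading and of GW182 contact, where RISC is the Argonaute complex, in 15 of 16 (median -0.35). Of the 15 genes of deadenylation, such as the CCR4-NOT subunits, 15 were lower in females and 15 higher in males, and of the 14 genes of decapping and decay 14 were lower in females and 11 higher in males. The 6 germline Piwi genes were higher in 6 of 6 cases in females (median 0.36) and 2 of 6 in males. The 14 microRNA host transcripts split evenly in females, 7 higher and 7 lower, with a median of 0.059. These medians moved when background reads were taken into account. With the receptor share in the fit, 9 of 15 deadenylation genes were higher in females (median 0.041), and the female medians became 0.016 for Microprocessor cofactors, -0.017 for export and dicing, -0.043 for RISC loading, -0.046 for decapping and decay and 0.0003 for germline Piwi genes. With the background subtracted, the median of the Microprocessor cofactors became -0.17 and that of the Piwi genes 0.51, and 12 of 15 deadenylation genes were lower.

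Single genes of these lists were named by the size of their difference with sexes averaged. Pabpc1, the poly(A)-binding protein that GW182 proteins contact, averaged 470.2 ± 81.8 CPM in room air females and 241 ± 17.5 CPM in hyperoxia females, and 392 ± 57.1 and 282 ± 76.8 CPM in males (SD, n = 3). Its log2 fold change with sexes averaged, -0.72 (SE 0.19, edgeR adjusted p = 0.44), was the lowest of the 87. The chaperones Hsp90aa1 and Hsp90ab1, which help to load Argonautes, followed with -0.51 (adjusted p = 0.67) and -0.49 (adjusted p = 0.93), and in females with -0.91 and -0.83. These calls depended on the test. In females, Pabpc1 was called by DESeq2 (adjusted p = 0.0079) and by edgeR's likelihood ratio test (adjusted p = 0.0145), and Hsp90aa1 by the latter (adjusted p = 0.0187) and in the edgeR fit to the 6 female lungs alone (adjusted p = 0.0176). With sexes averaged, Pabpc1 was called by both of those tests (DESeq2 adjusted p = 0.0019, edgeR likelihood ratio test adjusted p = 0.00458). Over all genes, DESeq2 called 44 in females and 40 with sexes averaged, the likelihood ratio test 73 and 37, and the fit to the female lungs alone 80 in females. The 3 largest positive values were those of Lin28a (0.31), Tdrd1 (0.28) and Piwil2 (0.22), at 11.7, 19.4 and 16.2 CPM (edgeR adjusted p = 0.93 for each). For these 3 genes the read density on receptor genes, times their exon length, amounted to a median of 40.1%, 34.5% and 39.8% of their counts, against 2.31% for Pabpc1. Prkra, the other RNA-binding partner of Dicer1, had log2 fold changes of 0.041 in females and -0.11 in males (adjusted p = 0.92 and 1.00).

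The same density of reads on receptor genes stood for a share of the counts of the 10 genes as well. It amounted to a median over lungs of 8.79% of Ago1 counts, 11.2% of Ago2, 11.5% of Drosha, 13.4% of Tnrc6a, 15.3% of Xpo5, 16.3% of Dicer1, 22.7% of Ago3, 24.1% of Tarbp2, 24.5% of Ago4 and 27.1% of Dgcr8, and reached 44.3% for Ago3 in 1 lung. The receptor share of the libraries was not even between the groups. It averaged 0.590% ± 0.179 in room air females, 0.812% ± 0.0952 in hyperoxia females, 0.818% ± 0.137 in room air males and 0.772% ± 0.228 in hyperoxia males (SD, n = 3). The satellite-like genes Gm10800, Gm10801 and Gm21738 were uneven too and took means of 12.7%, 23.5%, 20.5% and 18.7% of the counts in the same order of groups. Their part in the results was not tested.

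Across the 12 lungs, the CPM of each gene was lower where the receptor share was higher. Both quantities are shares of the same library total, so they are not independent measures. For Ago2, Pearson's r was -0.961 and Spearman's rho -0.951 (permutation p = 2e-05 for each, adjusted over 10 genes 3.3e-05 and 5e-05), and for Ago1 they were -0.956 and -0.951. The weakest relation was that of Tarbp2, with r = -0.699 (permutation p = 0.012, adjusted p = 0.012) and rho = -0.699. The other genes lay between, from -0.787 for Ago4 to -0.948 for Ago3, and adjusted permutation p were at most 0.014 by either coefficient. The smallest p that 100000 permutations can give is 1e-05, and for Pearson's r it was reached by Dicer1, Xpo5, Ago1 and Ago3. Without room air female 5 and hyperoxia male 1, the lungs farthest from the median share, r ran from -0.644 for Drosha to -0.969 for Ago3. Within the 4 groups, after their means were removed, it ran from -0.627 for Tarbp2 to -0.982 for Ago2. With the background density subtracted from the counts, r ran from -0.848 for Tarbp2 to -0.972 for Xpo5. Among the 7421 protein-coding genes in the same CPM range the median r was -0.857, with quartiles of -0.930 and -0.628, so most genes of this level stood in the same relation.

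**Figure D4:**
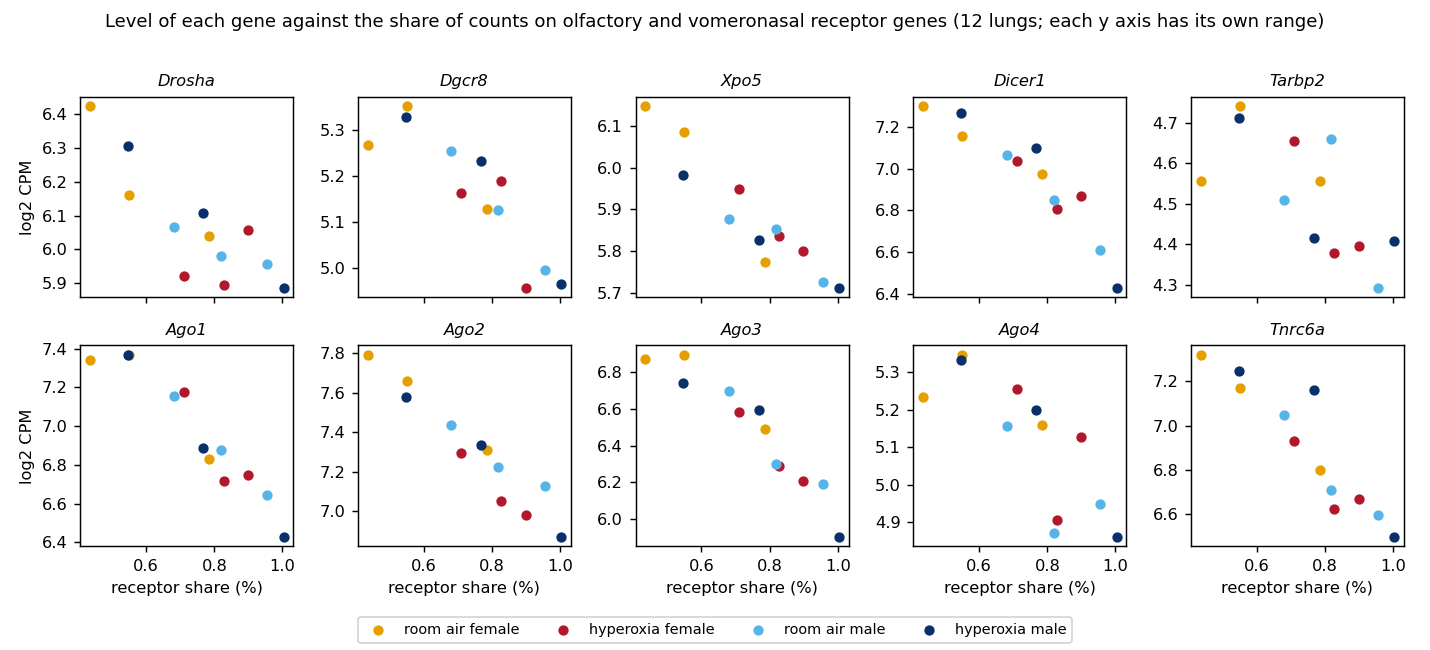
log2 CPM of each gene (vertical axes, each with its own range) against the percent of library counts on olfactory and vomeronasal receptor genes (horizontal axis), 1 point per lung, coloured by group. All 10 genes decline from left to right, from r = -0.699 in Tarbp2 to r = -0.961 in Ago2, and lungs of all groups follow the decline.

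The female differences of the 10 genes were smaller, to unequal degrees, when these reads were taken into account. With the background density subtracted, 9 of 10 were lower in females with a median log2 fold change of -0.10, and Xpo5 turned to 0.015. The genes did not move evenly, as Ago3 stood at -0.36 and Ago2 at -0.34, against -0.39 and -0.49 without subtraction, whereas Ago1 went from -0.30 to -0.11. When the fit took receptor share as a further term, 4 of 10 were lower and 6 higher, the median was 0.019, and Ago2 stood at -0.13 (edgeR adjusted p = 0.98). In females, receptor share averaged 0.590% in room air and 0.812% in hyperoxia lungs, so that term and exposure cannot be fully told apart. When factors of unwanted variation, estimated from residuals by RUVr, were added instead, the log2 fold changes stayed near those without factors, with Ago2 at -0.48, and 6 of the 10 (Ago1, Ago2, Ago3, Tnrc6a, Dicer1 and Drosha) reached an adjusted p under 0.05 in females with 1 factor, where 16.7% of all genes did. The lowest was 7.94e-07 for Ago2 (edgeR). With 3 factors, Ago1 also reached an adjusted p under 0.05 with sexes averaged (edgeR adjusted p = 0.0396, where 6.16% of all genes did), and Ago3 and Dicer1 did between the sexes (log2 difference 0.152 and 0.138 higher in females, edgeR adjusted p = 0.0426 and 0.0443, where 6.42% of all genes did). None of the 10 passed the fold change of 1.5 in these fits, so the count of calls stayed at 0, while 4.14% of all genes were called in females with 1 factor. The same 6 genes reached an adjusted p under 0.05 for the interaction with 1 factor, where 11.7% of all genes did, and with sexes averaged Ago2 and Ago3 did (edgeR adjusted p = 0.0011 and 0.047), where 4.51% of all genes did. Of the 87 listed genes around the machinery, 5 were called lower in females with 1 factor (Pabpc1, Hsp90aa1, Hspa8, Hsp90ab1 and Adar). With sexes averaged 1 was (Pabpc1), where 0.201% of all genes were called. For the interaction 8 were called (Ddx5, Ddx17, Hsp90aa1, Hsp90ab1, Tob1, Cnot6, Tut7 and Lsm14a, each with a negative difference), where 4.59% of all genes were, and between the sexes 1 (Hspa8, higher in females), where 2.2% were.

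**Figure D5:**
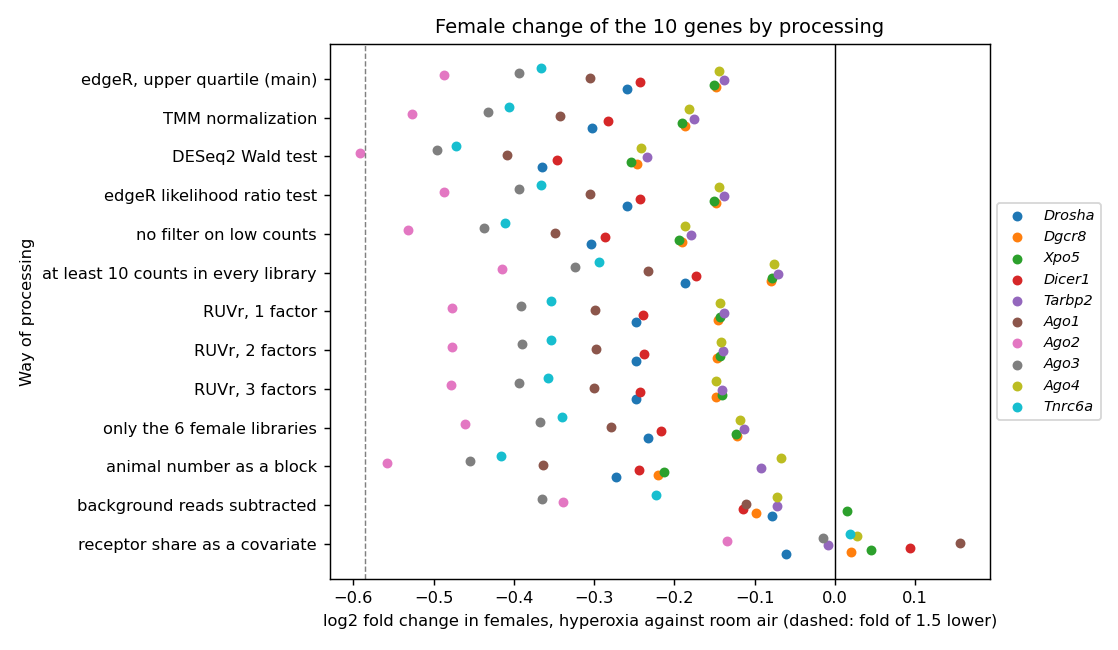
log2 fold change of the 10 genes in females, hyperoxia against room air (horizontal axis), under each way of processing (vertical axis), with 1 coloured point per gene. Points lie left of 0 except for Xpo5 with background reads subtracted and 6 genes once receptor share entered the fit, and only Ago2 with DESeq2, at -0.59, lies past a fold change of 1.5.

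Markers of cells and tissues were summed in each lung. The 10 lung epithelium markers summed to 10960 to 21380 CPM in room air females and 9857 to 10790 CPM in hyperoxia females, and 10 of 10 were lower in hyperoxia females with 0 called by edgeR and 4 at an unadjusted p under 0.05, where 5.28% of all genes were lower. In males they summed to 9349 to 13890 and 7786 to 14210 CPM, which overlapped, and 7 of 10 were higher after hyperoxia (median log2 fold change 0.12, 0 called). The 5 red cell markers summed to 5452 to 7881 CPM in room air females against 1247 to 2927 CPM in hyperoxia females, and to 5118 to 7331 against 2109 to 4650 CPM in males, with 3 of 5 called lower with sexes averaged, where 0.0415% of all genes were called. The 8 cardiac muscle markers summed to 240.4 to 269 CPM in room air females and 127 to 159 CPM in hyperoxia females, and to 123 to 282 against 127 to 133 CPM in males. The 8 markers of endothelium and mesenchyme summed to 2203 to 3571 against 1982 to 2254 CPM in females, and to 2275 to 2645 against 1382 to 2687 CPM in males. The 8 leukocyte markers summed to 416 to 676 against 327 to 519 CPM in females and, the other way in their medians, to 310.3 to 456 (median 340.3) against 369 to 525 (median 402) CPM in males, with overlap in both sexes. Skeletal muscle markers summed to 2317 CPM in room air male 1 and to at most 221 CPM in every other lung. The 6 thymus markers summed to 55.6 to 60.04 CPM in room air females against 65.3 to 84.5 CPM in hyperoxia females, with 6 of 6 higher (0 called), and to 70.1 to 75.6 against 57.97 to 76.1 CPM in males, with 6 of 6 lower (0 called). The 6 brown fat markers summed to 21.8 to 27.6 against 25.5 to 31.6 CPM in females and 22.5 to 33.96 against 25.2 to 35.9 CPM in males. At an unadjusted edgeR p under 0.05 in females, 5 of 5 red cell, 5 of 8 cardiac muscle and 3 of 8 leukocyte markers were lower. So were 2 of 8 markers of endothelium and mesenchyme. Higher at that threshold were 2 of 6 thymus, 1 of 6 brown fat and 1 of 10 skeletal muscle markers, where 7.32% of all genes were. None of the markers of these lists was at 0 in all lungs. The part of these cells in the levels of the 10 genes was not tested.

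For the genes at the start, middle and end of the pathway, the genes whose log2 CPM ran most alike over the 12 lungs were looked up among 14605 genes with a mean of at least 10 CPM. For Drosha these were C1s1, Golga7 and Tmed4 (r = 0.954, 0.940 and 0.939). For Dicer1 they were Lmbrd1, Snrk and Ric1 (r = 0.988, 0.985 and 0.985), and for Ago2 they included Kif5b and Arpc5 (r = 0.994 and 0.992). The likeness is over lungs that also differ in receptor share, as described above.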

How the data were processed

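Total RNA of 12 miR-30a-/- lungs was sequenced. For the library kit, the study methods name QIAseq Stranded Total RNA and the labels NEBNext Ultra II Directional with rRNA depletion. The authors ran Trim Galore, then STAR against mm10 (GRCm38), and deposited raw featureCounts counts per gene. Tool versions, strand setting and treatment of multi-mapping reads are not given in the sources used here. The study also applied ComBat-seq batch normalization, whose batches are not given in the sources used here and which was not repeated, and its number of RUVr factors is not given, so RUVr was an alternative.

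Counts were fitted with edgeR 4.0.16 (R 4.3.3; robust quasi-likelihood, upper-quartile normalization, filterByExpr, 4 group means over all 12 lungs). DESeq2 1.42.0 was an alternative, and single values were tested by exact permutation in Python 3.11.15 with scipy 1.17.1. CPM used the normalized library sizes, and exon lengths, UTRs and positions came from GENCODE M21, which matched 55227 of 55487 genes. Background was taken as the median read density over 1768 olfactory and vomeronasal receptor genes in each library. Microprocessor, export, RISC, deadenylation, decapping, germline Piwi and host transcript lists, and lists of lung epithelium, lung endothelium and mesenchyme, leukocyte, red cell, skeletal muscle, cardiac muscle, thymus and brown fat markers, were used. The 10 genes and the lists were chosen with earlier results of these data known. Of the listed genes, those named are the 3 largest rises and falls with sexes averaged, the direct partners and paralogs, and any called, to which those called under an alternative were added after their values were seen. Alternatives were TMM, DESeq2, the likelihood ratio test, other filters, RUVr with 1 to 3 factors, background subtraction, the receptor share as a covariate, other models, the adjusted p alone and leaving out each lung. No 2 libraries held identical counts (0 pairs). Which litter each lung came from is not given in the sources used here, and p-values measure only the spread between these lungs. A gene alike to Ago2 is not reported here.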

Additional observations from a re-analysis of the deposited data

How the results depend on the processing

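None of the 10 genes was called in any comparison under any alternative or with any lung left out. Over all genes, edgeR called 19 with sexes averaged (9 to 130 over the alternatives, 3 to 37 with 1 lung left out), 1 in females (0 to 2051, and 0 to 206), 0 in males (0 to 86, and 0 to 1), 0 for the interaction (0 to 2393, and 0) and 559 between the sexes (266 to 1096, and 476 to 687). With 1 lung left out the female log2 fold changes of the 10 genes stayed between -0.62 and -0.059.

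Directions turned mostly with the receptor share as a covariate. In females they became 0.020 for Dgcr8, 0.094 for Dicer1, 0.045 for Xpo5, 0.16 for Ago1, 0.027 for Ago4 and 0.019 for Tnrc6a. With sexes averaged they became 0.018 for Dgcr8, 0.059 for Dicer1, 0.011 for Xpo5, 0.028 for Ago1 and 0.064 for Tnrc6a. In males they became -0.022 for Xpo5, -0.010 for Tarbp2, -0.10 for Ago1, -0.077 for Ago2 and -0.060 for Ago3. For the interaction they became 0.0039 for Dgcr8, 0.069 for Dicer1, 0.066 for Xpo5, 0.0022 for Tarbp2, 0.26 for Ago1 and 0.045 for Ago3. Between the sexes they became -0.039 for Drosha, -0.041 for Dgcr8, -0.0048 for Tarbp2, -0.039 for Ago1, -0.051 for Ago2, -0.0020 for Ago3 and -0.11 for Tnrc6a. With the background subtracted, Xpo5 turned to 0.015 in females, -0.020 in males and 0.035 for the interaction, Ago1 and Ago2 to -0.042 and -0.049 in males, Drosha and Tnrc6a to -0.017 and -0.014 between the sexes, and the log2 ratios of Drosha to Dgcr8, Dicer1 to Tarbp2 and Drosha to Dicer1 to 0.019, 0.0011 and 0.022. Ago4 with sexes averaged turned to -0.013 with TMM, -0.034 with DESeq2, -0.012 without a filter and -0.0060 with 3 RUVr factors. The cause was not tested.

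With 1 lung left out, male log2 fold changes ran from -0.23 to 0.25 for Ago1, -0.14 to 0.20 for Ago2, -0.11 to 0.26 for Ago3, -0.016 to 0.16 for Dgcr8, -0.045 to 0.34 for Dicer1, -0.080 to 0.12 for Tarbp2 and -0.045 to 0.097 for Xpo5. With sexes averaged they ran from -0.046 to 0.067 for Ago4, -0.083 to 0.0057 for Dgcr8, -0.14 to 0.046 for Dicer1 and -0.15 to 0.023 for Tnrc6a, and between the sexes from -0.0065 to 0.17 for Ago2, -0.0255 to 0.067 for Dgcr8, -0.024 to 0.092 for Drosha, -0.0034 to 0.10 for Tarbp2 and -0.071 to 0.11 for Tnrc6a. The Ago1 share ran from -0.37 to 0.84 points, and the log2 ratios from -0.090 to 0.022 for Drosha to Dgcr8, -0.083 to 0.082 for Dicer1 to Tarbp2 and -0.072 to 0.046 for Drosha to Dicer1.

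Animal numbers 2 and 5 occur in both female groups, but deviations of same-numbered lungs correlated at 0.22 and -0.33 over 14605 genes, so the numbers were not taken to pair them. With the number as a replicate block, the fit used the 6 female lungs alone and called 451 of all genes. The fit to the same lungs without the block called 80. Numbers 4 and 6 each occur in only 1 female group, so those lungs do not inform the difference in the blocked fit. None of the 10 genes was called with the block (0). Their log2 fold changes ran from -0.56 for Ago2 to -0.067 for Ago4 (edgeR adjusted p from 0.286 to 0.861). Of the 87 listed genes, 3 were called in females with the block (Hsp90aa1 and Hspa8 lower, Tdrd1 higher), where 1.04% of all genes were. Ddx5 was also called lower in females with 3 RUVr factors, where 4.48% of all genes were called. With single lungs left out, Hsp90aa1 and Ran were called lower in females and Hsp90aa1 lower with sexes averaged. Hspa8 was called only between the sexes in those fits, higher in females. Over all genes those fits called up to 206 in females, 37 with sexes averaged and 687 between the sexes. Males share only number 1, whose lungs correlated at -0.49, so no paired fit was made there. With 3 lungs per group, the 95% intervals of 6 of the 10 genes in females reached past a fold change of 1.5.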
